A study of Homo sapiens with 6 samples.

Results

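MTF2, WDR25, KDM4A, SEMA7A, IGF2BP3 and GRIA1 are the 6 genes that hold the strongest accessible-chromatin calls that separated the groups completely, present in 3 of 3 libraries on one side and 0 of 3 on the other. They are 6 of 20033 protein-coding genes in the gene table used. In MTF2, WDR25 and KDM4A the interval was called in all 3 libraries of NCI-H1703 cells with silenced DLGAP1-AS2, and in SEMA7A, IGF2BP3 and GRIA1 in all 3 libraries of control NCI-H1703 cells. The genes were chosen from the deposited values themselves: group-only regions were ordered by the largest false discovery rate (FDR) over the 3 calling libraries, and the first 3 in each direction were taken. The contrast at these intervals is therefore a description with no test. Every peak that overlapped a gene's span plus 5 kb on either side was then collected, which gave 233 of 507440 merged regions and between 47 and 79 peaks per library.

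The assay was ATAC-seq, in which a transposase cuts and tags open DNA, so that the pile of fragments over a site (the height of a peak) measures how accessible the site was. NCI-H1703 is an established human line of lung squamous cell carcinoma, and the silenced transcript, DLGAP1-AS2, is an antisense long non-coding RNA. The labels give the 3 control libraries as control with no further agent, and each library began with 10000 to 50000 cells. They do not say whether the 3 libraries of a group came from separate cultures, so the spread between them may be technical, and the lists hold no RNA value that would show the degree of silencing.

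The 6 genes have unrelated roles. MTF2 is a Polycomb-like protein that binds CpG-rich DNA and helps bring Polycomb repressive complex 2 to it, and KDM4A is a histone demethylase that removes methyl groups from lysines of histone H3. WDR25 encodes a protein with WD repeats. SEMA7A is a semaphorin held at the cell surface by a lipid anchor, with integrins and plexin C1 as receptors. IGF2BP3 is an RNA-binding protein made in the embryo and again in many carcinomas, and GRIA1 is a subunit of the AMPA-type glutamate receptor of neurons. An accessible start site is common at genes that are transcribed, but openness is not itself a measure of expression.

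The lists held 91346 to 170882 peaks on chromosomes 1 to 22, X and Y. Read depth is unknown. The lowest background coverage of a list, computed from height and fold enrichment, stood in for it and ran from 0.237 in silenced replicate 3 to 0.464 in control replicate 2. The list of control replicate 2 had few low peaks, with 2.46% under a height of 4 against 48.1% to 52.1% in the others. Of 7 squamous markers, only SOX2 had a peak within 1 kb of an end of its gene span in all 6 libraries, TP63 had one in 4 libraries, KRT5, KRT14 and PKP1 in 1 each, DSG3 in 2 and KRT6A in none. Of 4 lung adenocarcinoma and alveolar markers, 3 (NKX2-1, NAPSA and SFTPC) had such a peak in all 6, which for NKX2-1 and NAPSA also lay at a start site, while no start site was read for SFTPC. Of 2 leukocyte, 2 endothelial and 3 fibroblast markers, 1 (COL1A2) did, also with no start site read. Start sites were read for 5 of the 7 squamous markers. SOX2 had a peak within 500 bp of one in all 6 libraries, TP63, DSG3 and PKP1 in 1 each, and KRT5 in none. The shares of all genes with such peaks were not computed, so the marker counts are not read as a sign of cell type.

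Sequence just before the start site is shown for the 4 genes whose start sites bear on the calls, because the SEMA7A start site was itself the site called in one group, whereas the start sites of MTF2, WDR25 and KDM4A lay under a peak in every library, beside the interval of interest. The sequences are from RefSeq (GRCh38.p14), run 5′ to 3′ on the strand of the gene, and end at the base before the start site. For WDR25 the stretch was limited to the 157 bases between its span and that of WARS1. Capitals mark matches on either strand to GGGCGG (the SP/KLF motif), CCAAT (the CCAAT box) or CCGGAAG (the ETS motif).
SEMA7A, chr15:74433959-74434208, minus strand: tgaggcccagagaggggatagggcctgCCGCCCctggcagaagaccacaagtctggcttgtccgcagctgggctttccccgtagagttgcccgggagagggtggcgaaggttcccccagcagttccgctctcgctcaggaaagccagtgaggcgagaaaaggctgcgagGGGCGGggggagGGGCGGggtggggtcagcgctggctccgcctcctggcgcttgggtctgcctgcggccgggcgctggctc
MTF2, chr1:93079033-93079282, plus strand: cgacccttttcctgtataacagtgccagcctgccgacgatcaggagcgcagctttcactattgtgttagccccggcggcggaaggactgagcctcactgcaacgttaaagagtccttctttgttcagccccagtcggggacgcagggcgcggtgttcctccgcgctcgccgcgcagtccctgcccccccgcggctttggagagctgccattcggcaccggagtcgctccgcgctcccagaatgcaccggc
WDR25, chr14:100376328-100376484, plus strand: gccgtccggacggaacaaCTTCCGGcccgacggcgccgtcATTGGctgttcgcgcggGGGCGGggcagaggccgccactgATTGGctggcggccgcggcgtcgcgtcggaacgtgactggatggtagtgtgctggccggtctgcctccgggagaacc
KDM4A, chr1:43649899-43650148, plus strand: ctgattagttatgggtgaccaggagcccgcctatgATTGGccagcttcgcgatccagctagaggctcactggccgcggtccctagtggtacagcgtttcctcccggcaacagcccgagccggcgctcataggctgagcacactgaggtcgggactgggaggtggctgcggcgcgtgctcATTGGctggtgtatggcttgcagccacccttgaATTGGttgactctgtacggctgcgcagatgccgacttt

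The SEMA7A stretch held 3 matches to GGGCGG and none to the other motifs. KDM4A held 3 CCAAT matches, and WDR25 held 2 CCAAT matches, 1 GGGCGG match and 1 CCGGAAG match. MTF2 held no match to any motif searched. The other motifs searched on both strands, GGAATG (TEAD), TGANTCA (AP-1) and the NRF1 motif, had no match in these 4 stretches. Among 34788 stretches of 250 bases before RefSeq start sites, 42.6% held GGGCGG, 32.0% CCAAT, 8.50% CCGGAAG, 11.9% GGAATG, 6.59% TGANTCA and 1.02% the NRF1 motif. CpG dinucleotides numbered 25 before MTF2, 32 in the full 250 bases before WDR25, 17 before KDM4A and 17 in the printed SEMA7A stretch, with a median of 11 over all stretches. SEMA7A has a second start site, at 74433704. The 250 bases before that site, not printed, held 4 matches to GGGCGG and 38 CpG dinucleotides.

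**Figure D1:**
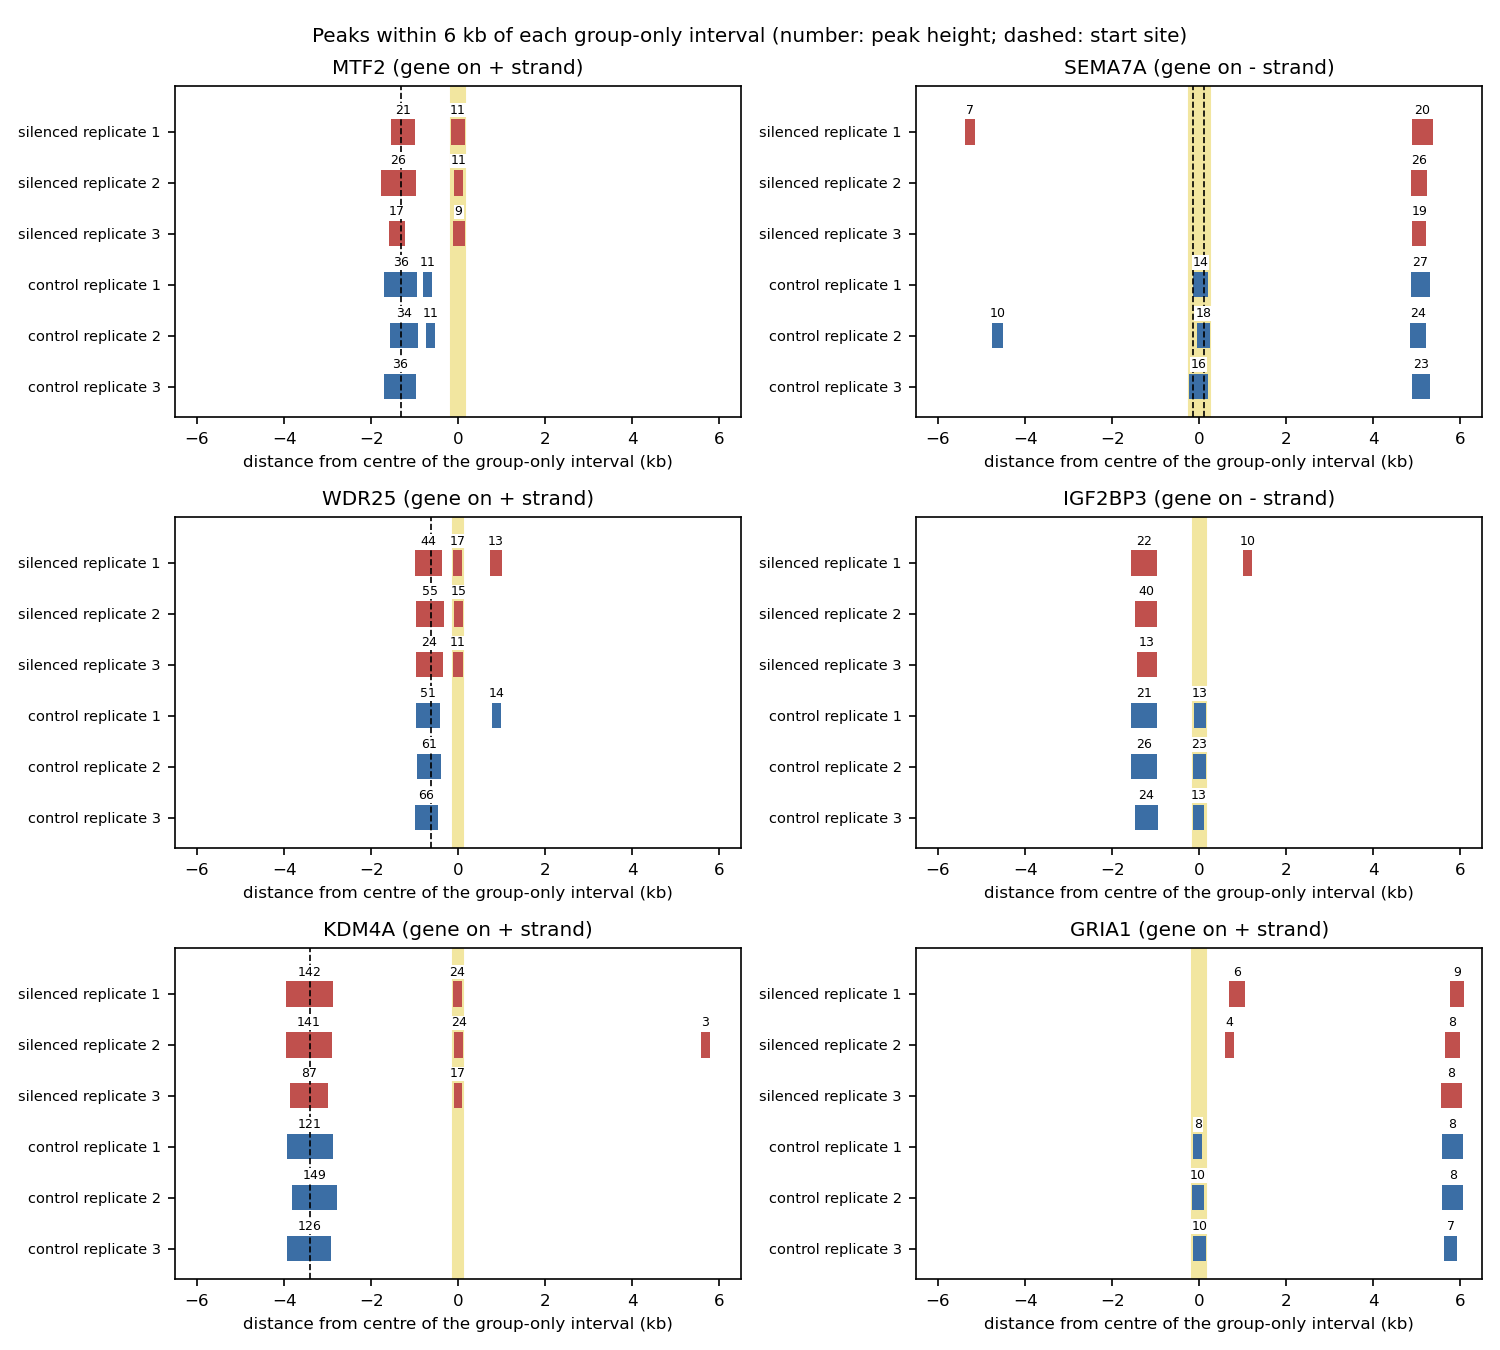
Peaks of each library (rows; red, silenced; blue, control) against distance in kb along the chromosome from the centre of the group-only interval (shaded), with peak heights in fragments printed above the bars and start sites dashed. The MTF2, WDR25 and KDM4A intervals sit beside a taller peak over the start site that every library has, and the SEMA7A interval lies over the start sites themselves.

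The MTF2 interval lay 1150 bp downstream of the start site of the gene (MTF2, gene 22823, plus strand, chr1:93079283-93139076). The calls covered chr1:93080433-93080748 in all, of which 209 bp were common to the 3 silenced libraries. Heights were 11, 11 and 9 in silenced replicates 1, 2 and 3, a mean of 10.3 ± 1.15 (SD, n = 3). These calls were 316, 209 and 285 bp long and stood at 18.2%, 22.8% and 21.9% from the top of their lists by p-value. No control library had a call there.

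Control libraries did have peaks next to it. Control replicates 1 and 2 called a peak of height 11 that ended 446 and 375 bp before the interval, between it and the start-site peak, and control replicate 3 called none in that gap. No silenced library called that nearer site. The extra call downstream of the MTF2 start site thus fell at one place in the silenced libraries and at a different place in 2 of the 3 control libraries.

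The MTF2 start-site peak was present in all 6 libraries, with heights of 21, 26 and 17 in silenced and 36, 34 and 36 in control replicates 1, 2 and 3. Fold enrichment over the local background was 10.5, 10.2 and 9.28 in silenced and 12, 11.5 and 13.2 in control libraries. All 3 silenced values of both measures lay below all 3 control values. How many of all regions called in every library separate so on these measures was not computed. Neither measure is adjusted for depth between lists, so the comparison used ranks within each list among the 37284 regions called in all 6. On that scale (normal scores) the difference, silenced minus control, was −0.23 ± 0.22 (SE), and did not pass (limma with Benjamini-Hochberg adjustment over 37284 regions, adjusted p = 0.965). The ranks of the groups overlapped.

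In WDR25 (gene 79446, plus strand, chr14:100376485-100530303) the interval lay 503 bp downstream of the start site, at chr14:100376988-100377227. Heights were 17, 15 and 11 in silenced replicates 1, 2 and 3 (14.3 ± 3.06, SD, n = 3), with call lengths of 219, 200 and 240 bp. No control library had a call there. The nearest control peaks were the start-site peaks, which ended 294, 283 and 341 bp before the interval in control replicates 1, 2 and 3.

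The start-site peak of WDR25 also covered the neighbouring end of WARS1, the cytoplasmic tryptophanyl-tRNA synthetase gene (chr14:100333790-100376327). It had heights of 44, 55 and 24 in silenced and 51, 61 and 66 in control libraries, so that silenced replicate 3 stood lowest and silenced replicate 2 lay within the control range. Its rank score differed by −0.17 ± 0.21 (SE; limma, adjusted p = 0.967). A peak farther into the gene was called in silenced replicate 1 (height 13) and control replicate 1 (height 14), and in no other library.

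The KDM4A interval had the tallest calls of the silenced-only intervals. KDM4A (gene 9682, plus strand, chr1:43650149-43705518) held it 3282 bp downstream of its start site, at chr1:43653431-43653658. Heights were 24, 24 and 17 in silenced replicates 1, 2 and 3 (21.7 ± 4.04, SD, n = 3), while fold enrichment was 3.29, 3.32 and 3.75, the lowest of the 6 intervals. The background behind the calls was 6.6, 6.52 and 3.8, or 16.1 to 17.9 times the lowest background of the same list. Each of the 3 calls was exactly 200 bp long, the shortest length found in the lists, which 26.0% to 49.2% of the peaks of a library have.

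The KDM4A start-site peak was among the strongest of every list, between 0.113% and 0.252% from the top by p-value. Its heights were 142, 141 and 87 in silenced and 121, 149 and 126 in control replicates 1, 2 and 3, and the groups overlapped. The rank score difference was 0.12 ± 0.19 (SE; limma, adjusted p = 0.973). It was the nearest peak to the interval in each control library, 2675 to 2804 bp away. The other regions called in all 6 libraries at KDM4A lay at the far end of the gene. One had heights of 14, 14 and 11 in silenced and 13, 16 and 15 in control libraries. The other, over the ends of KDM4A-AS1 and ST3GAL3 (a sialyltransferase gene), had heights of 39, 43 and 14 in silenced and 37, 36 and 38 in control libraries.

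At SEMA7A the group-only call was the start site. SEMA7A (gene 8482, minus strand, chr15:74409289-74433958) has RefSeq start sites at positions 74433958 and 74433704, and the control calls together covered both (control replicate 3 did so alone), at chr15:74433616-74434097. Heights were 14, 18 and 16 in control replicates 1, 2 and 3 (16 ± 2, SD, n = 3). Fold enrichment was 5.81, 6.88 and 6.85, and the FDR was at most 7.98e-08, the lowest worst-case value of any group-only region. Of the 250 bases printed above for SEMA7A, control calls covered 113, 139 and 113 bases, and no silenced call covered any. Of the 250 bases before the start site at 74433704, control calls covered 247, 153 and 250, and silenced calls again none.

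No silenced library had a peak closer than 4638 bp to the SEMA7A interval. The nearest was a region upstream of the gene, chr15:74438705-74439235, which all 6 libraries called. Heights there were 20, 26 and 19 in silenced and 27, 24 and 23 in control replicates 1, 2 and 3. The groups overlapped, and the rank score difference was 0.19 ± 0.24 (SE; limma, adjusted p = 0.968). A region beyond the far end of SEMA7A, also called in all 6, had heights of 6, 13 and 9 in silenced and 11, 11 and 13 in control libraries. SEMA7A was therefore the gene among the 6 in which the start site separated the groups while the flanking regions were called in every library.

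The IGF2BP3 interval was far inside the gene (gene 10643, minus strand, chr7:23310209-23470491), 38507 bp downstream of the start site, at chr7:23431680-23431984. Heights were 13, 23 and 13 in control replicates 1, 2 and 3 (16.3 ± 5.77, SD, n = 3). Fold enrichment was 4.86, 7.23 and 5, over local backgrounds of 1.88, 2.32 and 1.8. Control replicate 2, the list of highest background coverage, stood above the others in both height and fold enrichment. A region 795 bp from the interval, chr7:23430255-23430885, was called in all 6 libraries. Its heights were 22, 40 and 13 in silenced and 21, 26 and 24 in control libraries. Silenced replicate 2 was the highest there and silenced replicate 3 the lowest, and the rank score difference was 0.40 ± 0.29 (SE; limma, adjusted p = 0.963). Silenced replicate 1 had a further call of height 10 on the other side of the interval.

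The start-site peak of IGF2BP3 was called in every library, with heights of 49, 39 and 31 in silenced and 42, 50 and 49 in control replicates 1, 2 and 3. A region just upstream of it (chr7:23471060-23471466) had heights of 33, 55 and 20 in silenced and 60, 39 and 38 in control libraries. The tallest region at the gene lay farther upstream (chr7:23473951-23474868), with heights of 66, 81 and 40 in silenced and 74, 71 and 75 in control libraries. In none of these 3 regions did the heights of the groups separate. IGF2BP3 had 6 regions called in all 6 libraries, the most of the 6 genes.

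GRIA1 had the lowest peaks of the 6 genes. Its start sites (gene 2890, plus strand, chr5:153489615-153813869, start sites at 153490670 and 153492172) had a peak within 500 bp in 2 of 6 libraries each, with heights of 2 to 5. No peak at the gene was taller than 10 in any library. The control-only interval, chr5:153623182-153623504, lay 131010 bp downstream of the second start site. Heights were 8, 10 and 10 in control replicates 1, 2 and 3 (9.33 ± 1.15, SD, n = 3), the lowest of the 6 intervals. Its background was 1.61 to 1.68 times the lowest of the list, so that fold enrichment was 5.56, 6.18 and 6.88.

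Silenced replicates 1 and 2 called lower peaks close to the GRIA1 interval, 529 and 443 bp away, with heights of 6 and 4. Silenced replicate 3 had no peak within 5 kb. The next region along GRIA1, chr5:153628896-153629437, was called in all 6 libraries and leaned the other way. Heights were 9, 8 and 8 in silenced and 8, 8 and 7 in control libraries, and fold enrichment was 6.58, 5.49 and 6.08 in silenced and 5.17, 4.64 and 4.82 in control libraries. All silenced ranks lay above all control ranks there, as at 5.39% of all 37284 regions called in every library. The rank score difference was 0.66 ± 0.38 (SE) and did not pass (limma, unadjusted p = 0.0984, adjusted p = 0.963). At an FDR of at most 1e-05 that region would count as called only in silenced libraries, since its FDR was at most 9.65e-06 in each silenced and at least 3.22e-05 in each control library. GRIA1 then held group-only calls in both directions.

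**Figure D2:**
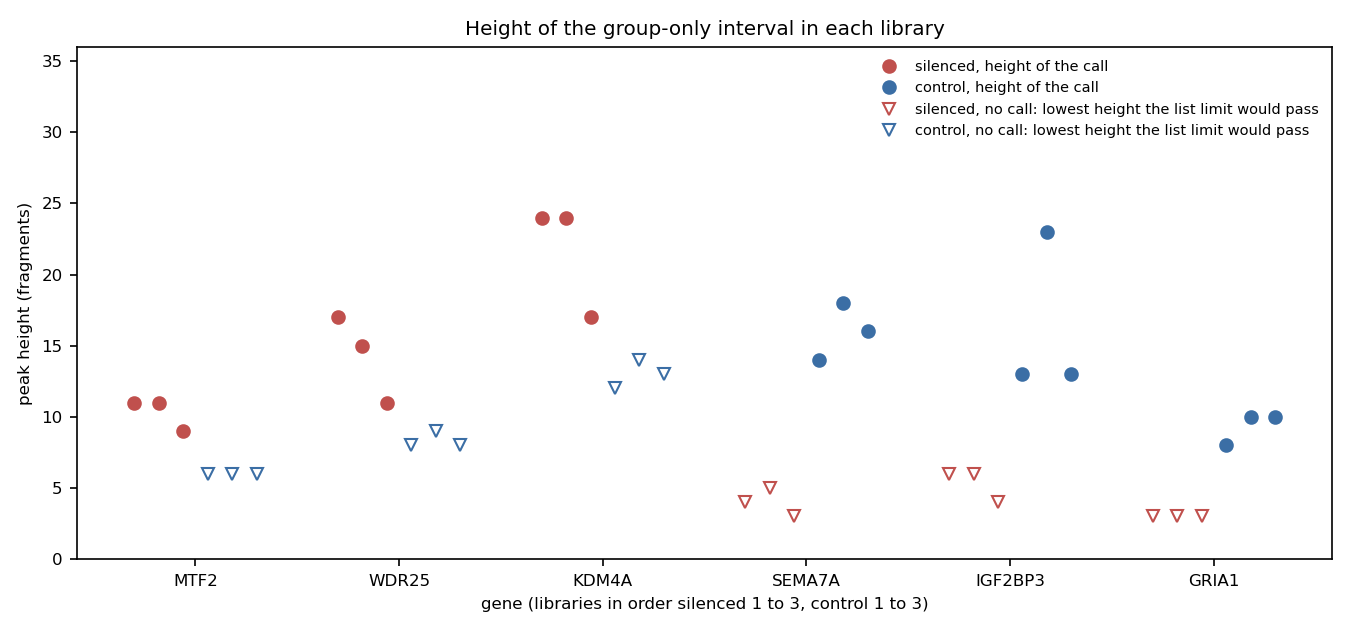
Height (fragments) of the group-only interval in each library that called it (filled circles), and, for each library that did not, the lowest height that its list limit would pass at the background of its nearest peak (open triangles). The KDM4A calls of 17 to 24 stand over limits of 12 to 14 in the control libraries, and the GRIA1 calls of 8 to 10 over limits of 3 in the silenced libraries.

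A missing call does not mean closed chromatin, since a list omits anything below its p-value limit. The height a call needed was computed from the background of the nearest peak in the same library and the p-value limit of 0.01 that the lists show. At the MTF2 interval it was at least 6 in each control library, where the silenced calls had 9 to 11. The background used there was 4.36 to 5.42 times the lowest of the list, against 2.93 to 3.97 times at the silenced calls. The MTF2 limits are therefore approximate. At WDR25 the limits were 8, 9 and 8 in control replicates 1, 2 and 3, against silenced heights of 11 to 17. At KDM4A they were 12, 14 and 13, against 17 to 24. Signal just under these limits would not appear in a list.

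For the control-only intervals, a call at SEMA7A needed a height of 4, 5 and 3 in silenced replicates 1, 2 and 3, against control heights of 14 to 18. That background was read 4638 to 4653 bp away, at 2.88, 3.58 and 3.13 times the lowest of the list. The control calls at the interval had 3.80 to 4.16 times, so the SEMA7A limits may be somewhat low. At IGF2BP3 the limits were 6, 6 and 4, against 13 to 23, and at GRIA1 3 in each silenced library, against 8 to 10. For GRIA1 in silenced replicate 3 the background was read 5392 bp away, at 2.03 times the lowest of the list. The control calls at that interval had 1.61 to 1.68 times. These limits hold for calls of at least 200 bp, since no shorter interval is listed, so a narrower stretch of higher signal would also be missing.

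All 3 silenced-only intervals lay within 5 kb of a start site and of a region called in all 6 libraries, as did 1 and 2 of the 3 control-only intervals. Over all 662 silenced-only regions, 9.06% lay within 5 kb of a start site and 9.06% within 5 kb of a region called in all 6. Over all 1016 control-only regions, 18.6% and 18.0% did. Local background, taken as its median over the calling libraries, was 3.93, 7.16 and 16.2 times the lowest background of the list at MTF2, WDR25 and KDM4A. It was 3.98, 4.95 and 1.63 times at SEMA7A, IGF2BP3 and GRIA1. The median over all silenced-only regions was 1.03 and over all control-only regions 1.47. Among the 9 next strongest regions in each direction, ranked 4 to 12, it was 2.09 in the silenced and 2.37 in the control direction. Of these 9, 1 in the silenced and 4 in the control direction lay within 5 kb of a start site. Within 5 kb of a region called in all 6 libraries lay 4 in each direction. Over all merged regions 10.2% lay within 5 kb of a start site. Among those called in 1 to 5 libraries, 6.39% lay within 5 kb of a region called in all 6. These comparisons are descriptions, and the part of local background in the calls was not tested.

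Group-only regions made up 0.13% of all merged regions in the silenced direction and 0.2% in the control direction, and each gene held 1, as its selection required. Among all protein-coding genes, 1.79% held a silenced-only region and 3.42% a control-only region within their span plus 5 kb. Of all group-only regions, 3 reached an FDR of 1e-05 or lower in each calling library. These were the SEMA7A, IGF2BP3 and GRIA1 intervals, which follows from the order by worst-case FDR that chose them. The last region taken had a worst-case FDR of 6.58e-05 (KDM4A) in the silenced and 7.92e-06 (GRIA1) in the control direction. Just outside stood a region in TRIO (chr5:14322459-14322793, worst FDR 0.00024, heights 12 to 21), followed by 2 regions in no gene span. In the control direction the next were in ACACB, an acetyl-CoA carboxylase gene (chr12:109134127-109134655, worst FDR 1.30e-05, height 8 in each control library), LENG9 (chr19:54462745-54463114, 1.46e-05, heights 21 to 27) and CHURC1-FNTB (chr14:64976729-64976985, 1.52e-05, heights 9 to 11).

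**Figure D3:**
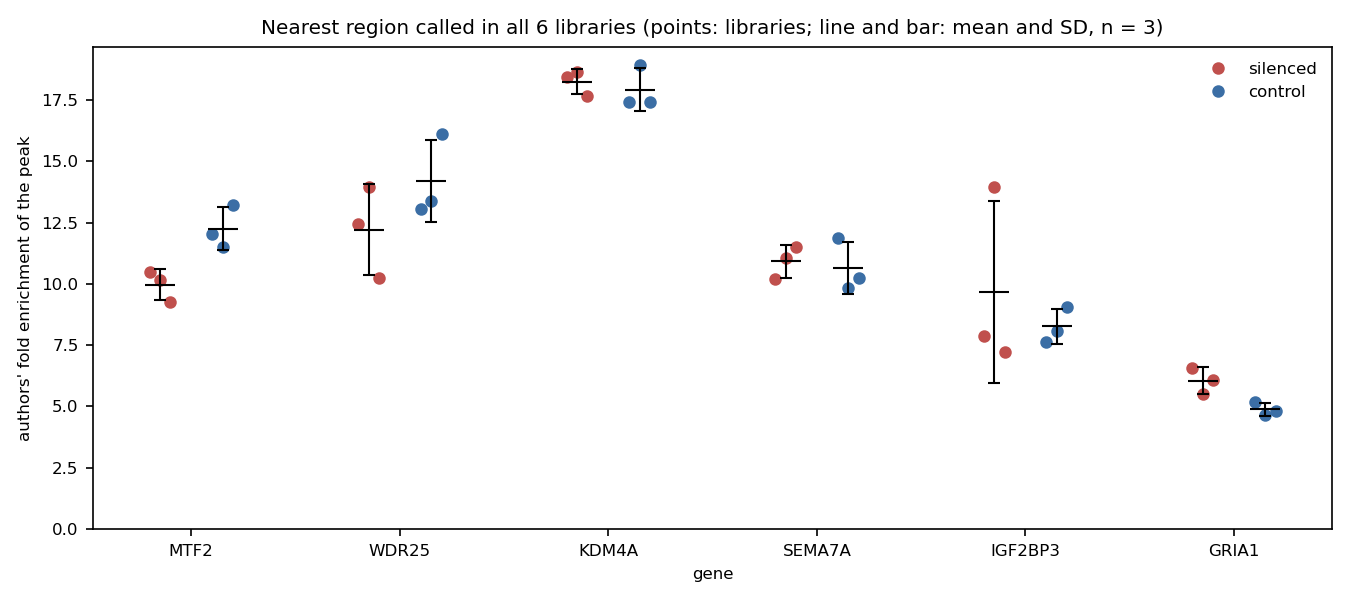
The authors' fold enrichment (ratio) of the nearest region called in all 6 libraries beside each group-only interval, by library, with mean and SD (n = 3). The groups overlap at WDR25, KDM4A, SEMA7A and IGF2BP3, the silenced values are lower at MTF2 (9.28 to 10.5 against 11.5 to 13.2) and higher at GRIA1 (5.49 to 6.58 against 4.64 to 5.17). The share of all such regions that separate on fold enrichment was not computed.

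Beyond the group-only intervals, no region shared by all libraries differed between groups past the threshold. The 6 genes held 18 regions called in all 6 libraries: 6 at IGF2BP3, 4 at WDR25, 3 at KDM4A, 2 each at SEMA7A and GRIA1, and 1 at MTF2. Of these, 0 passed an adjusted p under 0.05 in the rank comparison (limma), and 0 had an unadjusted p under 0.05. Over all 37284 such regions the shares were 0% and 4.68%. The rank score was higher in silenced libraries at 15 and lower at 3 of the 18. Over all 37284 regions it was higher at 18960 and lower at 18324. The median difference was 0.21 at the 18 regions against 0.0066 over all regions. In 3 of the 18, at GRIA1, IGF2BP3 and WDR25, all silenced ranks lay above all control ranks, and in none below. Over all regions 5.39% separated that way and 4.78% the other way. Since the genes were chosen on the same contrast, nothing is read from these counts.

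At the WDR25 region with separated ranks (chr14:100440125-100440721), heights were 12, 19 and 12 in silenced and 14, 16 and 16 in control libraries, and the rank score difference was 0.36 ± 0.29 (SE; limma, adjusted p = 0.965). The other WDR25 regions called in all 6 libraries had heights of 16, 9 and 5 against 14, 11 and 11, and of 27, 29 and 16 against 29, 17 and 26 (silenced against control replicates 1, 2 and 3). Silenced replicate 3 was the lowest or level with the lowest in each of these 3. At the corresponding IGF2BP3 region, the tall one upstream of the start site, the rank score difference was 0.22 ± 0.26 (SE; limma, adjusted p = 0.967).

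**Figure D4:**
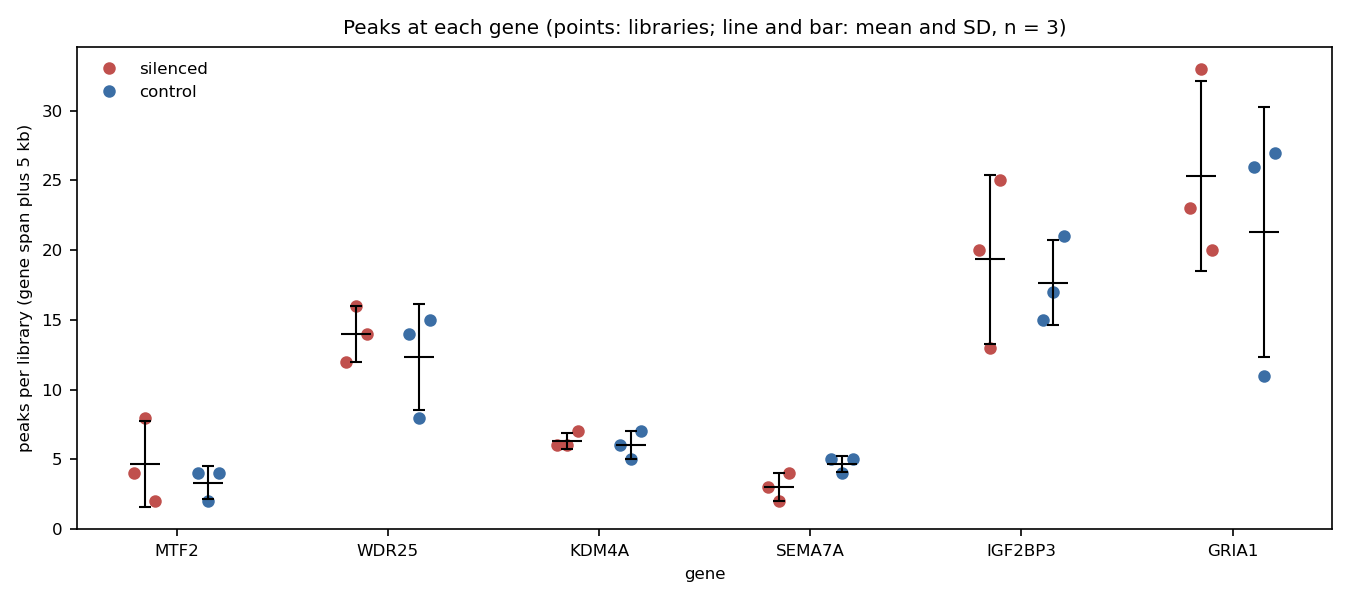
Number of peaks per library in each gene span plus 5 kb (points), with mean and SD (n = 3) for silenced and control libraries. The groups overlap in number at MTF2, WDR25, KDM4A, IGF2BP3 and GRIA1, and meet at 4 peaks at SEMA7A.

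Peak numbers over a whole gene overlapped between groups. GRIA1 had 23, 33 and 20 peaks in silenced and 26, 11 and 27 in control replicates 1, 2 and 3. IGF2BP3 had 20, 13 and 25 against 15, 17 and 21, and WDR25 had 12, 16 and 14 against 14, 8 and 15. KDM4A had 6, 6 and 7 against 6, 5 and 7, and MTF2 had 4, 8 and 2 against 4, 2 and 4. SEMA7A had 3, 2 and 4 against 5, 4 and 5, and without the chosen interval the control counts were 4, 3 and 4. Control replicate 2 had the fewest peaks at WDR25, KDM4A and GRIA1, as it had in its whole list.

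Summed over the 6 genes, silenced libraries held 72.7 ± 5.03 peaks (SD, n = 3). Control libraries held 65.3 ± 16.5 (SD, n = 3), a difference smaller than the control spread. It was not tested, since the chosen intervals are among the peaks. Without control replicate 2 the difference turned from 7.33 to −1.83 peaks. Counting only peaks with an FDR of at most 1e-05, the libraries held 19, 17 and 14 in silenced and 18, 21 and 20 in control replicates 1, 2 and 3.

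**Figure D5:**
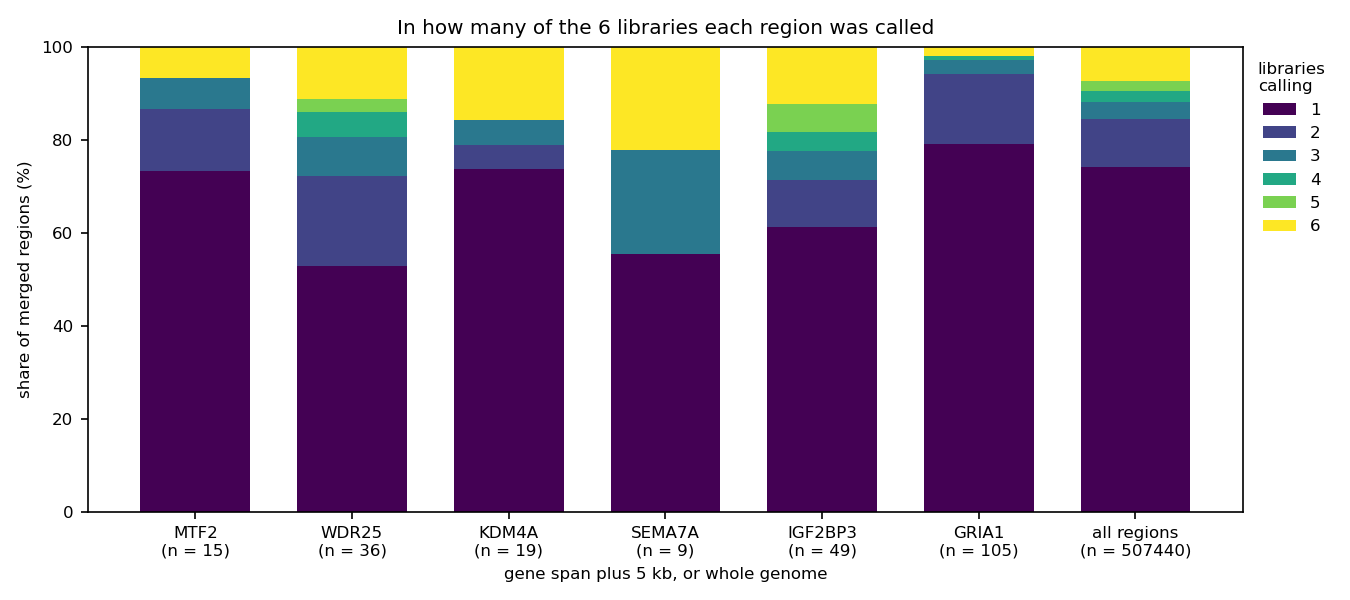
Share (%) of the merged regions at each gene called in 1 to 6 of the libraries, beside all 507440 regions. Regions of a single library make up 52.8% (WDR25) to 79.0% (GRIA1), against 74.1% over the genome, and regions of all 6 make up 1.90% (GRIA1) to 22.2% (SEMA7A), against 7.35%.

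Most regions at these genes were seen in a single library, as over the genome. Of the 233 regions, 162 (69.5%) were called once and 18 (7.73%) in all 6. GRIA1 was the widest and the most weakly marked, with 105 regions, of which 83 were called once and 2 in all 6. SEMA7A, the shortest gene at 24.7 kb, had 9 regions, 2 of them in all 6. A further 13 regions were called in exactly 3 libraries. The 6 chosen intervals among them followed the groups, as their selection required, and the other 7 mixed them. Over the genome 18476 regions were called in exactly 3 libraries, of which 662 were silenced-only and 1016 control-only. One of the mixed regions was at SEMA7A, called in silenced replicate 3 (height 4) and control replicates 1 and 3 (height 6 each).

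Of 29 genes in the partner and family lists, 1 held a silenced-only and 1 a control-only region, beside 1.79% and 3.42% of all protein-coding genes. EED, a core subunit of Polycomb repressive complex 2, held the first, with heights of 2, 3 and 4 in silenced replicates 1, 2 and 3 and a worst FDR of 0.529. IGF2BP1, the paralogue of IGF2BP3, held 2 control-only regions (chr17:48996962-48997253 and chr17:48997369-48997673). Heights were 14, 16 and 11 in the first and 9, 16 and 10 in the second, with a worst FDR of 0.00798 and 0.0731.

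Start sites could be read for 22 of the 29 genes, and 19 of these had a peak within 500 bp of one in all 6 libraries. They were 9 of 10 Polycomb repressive complex 2 genes, 3 of 3 other KDM4 demethylase genes, 3 of 3 SEMA7A receptor genes, the 1 other IGF2BP gene (IGF2BP2) and 3 of 5 genes of AMPA receptor subunits and their auxiliary proteins. IGF2BP1 was not among those read. Either end of the gene span had a peak within 1 kb in all 6 libraries at 20 of the 29, which is a different measure and includes the far end of a gene. At EZH2, the methyltransferase of Polycomb repressive complex 2, the start-site heights were 16, 22 and 3 in silenced and 28, 28 and 21 in control replicates 1, 2 and 3. At ITGB1, an integrin receptor of SEMA7A, they were 36, 31 and 12 against 24, 47 and 28. Silenced replicate 3, of lowest background coverage, stood below every other library at 16 of the 19 start sites with a peak in all 6. ITGA1, PLXNC1 and GRIA4 were the exceptions. Heights are not adjusted for depth. The matching shares over all start sites and all gene ends were not computed, so nothing is read from these counts.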

How the data were processed

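ATAC-seq peak lists of 6 libraries (3 silenced, 3 control) were used, grouped by the treatment label. The submitters' processing notes name Trimmomatic 0.36, Bowtie2 2.2.6, Picard 2.8.2, MACS2 2.1.1, bedtools 2.25.0 and GRCh38, with no role or order. Duplicate removal and any shift of read ends are not given in the sources used here. Per the file headers, each deposited row holds an interval, a fold enrichment (ratio), a p-value, an FDR (adjusted p-value) and a pileup signal (height), all the authors' values per peak and per library. Every p-value was at most 0.00987 and no interval was repeated or shorter than 200 bp.

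Background was computed as (height + 1) / fold enrichment − 1. The Poisson tail at that background matched the deposited p-value within 5% in 100% of peaks above a p-value of 1e-100. Gene spans came from a RefSeq table (GRCh38.p14), and start sites from RefSeq promoter sequences, where all 6 genes matched. The table gives no exons, so exon, intron or UTR position was not analysed here. Regions were merged over chromosomes 1 to 22, X and Y at an overlap of at least 1 bp. In regions called in all 6 lists, ranks of fold enrichment within each list became normal scores. They were tested with limma 3.58.1 in R 4.3.3 (two-sided, trended prior, Benjamini-Hochberg, threshold 0.05). The procedure was also run on simulated data, with shifts larger than any difference seen at the shared regions of the 6 genes. Whether it would find differences as small as those was not tried.

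The genes, lists and tests were chosen with earlier results of these data known. Named genes were the 6 genes, the regions ranked 4 to 6 by worst-case FDR in each direction, and fixed lists of partners, family members and cell type markers. The heights printed for EZH2 and ITGB1 were picked with their values in view. Alternatives were stricter FDR limits, equal list sizes, other merging rules and margins, other ranking measures, a replicate block and leaving out each library.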

Additional observations from a re-analysis of the deposited data

How the results depend on the processing

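The rank comparison gave 0 regions under every alternative run (limma), with 854 to 2462 regions at an unadjusted p under 0.05, and leaving out each library in turn gave 0 to 0. With the replicate block it also gave 0 regions (1770 at an unadjusted p under 0.05). Same-numbered libraries did not deviate together (correlations −0.00829 to 0.00238 over 3 pairs, across regions), so the numbers were not taken as pairs.

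Silenced-only regions at the 6 genes numbered 3 in the full lists and 1, the GRIA1 region described above, at an FDR of at most 1e-05. At that limit 0 of the 3 silenced and 3 of the 3 control intervals remained, an outcome fixed by the FDR values that chose them. Under each other setting run, all 6 intervals remained group-only. Leaving out a library or changing the margin could not have altered this. Equal list sizes and the other limits on FDR and height only removed peaks weaker than these calls. Only the other merging rules and the 200 bp windows could have changed it. Leaving out one library gave 3 to 7 silenced-only and 3 to 5 control-only regions, since fewer libraries must meet the condition. Peaks per library at the 6 genes differed by 7.33 (silenced minus control) in the full lists, by −3 at an FDR of at most 1e-05, by −1 with equal list sizes and by −5.67 at a height of at least 4, a setting added after the data were seen. Leaving out one library gave −1.83 to 14.2. The cause was not tested. The place of the intervals as the strongest changed with the setting. With 200 bp windows around midpoints, MTF2, WDR25 and KDM4A ranked 19, 20 and 26 of 676 silenced-only regions. SEMA7A, IGF2BP3 and GRIA1 then ranked 12, 15 and 16 of 1049 control-only regions. At an FDR of at most 1e-05, SEMA7A, IGF2BP3 and GRIA1 ranked 83, 415 and 472 of 508. Without silenced replicate 3, MTF2, WDR25 and KDM4A ranked 9, 10 and 6 of 5653 silenced-only regions, against 662 in the full lists. Without silenced replicate 2, IGF2BP3 and GRIA1 ranked 31 and 36 of 2353 control-only regions, against 1016. The shared regions beside the intervals kept their side of the threshold in each fit run, and the GRIA1 one could not be fitted at an FDR of at most 1e-05. Depth in reads is unknown, so heights cannot be set to a common scale between libraries.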
